A study of Mus musculus with 12 samples.

Results

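Retinoic acid, the active derivative of vitamin A, was examined here through 9 genes in mouse brain: Rbp4, the blood carrier of its precursor retinol, the synthesis enzymes Aldh1a1, Aldh1a2 and Aldh1a3, and the nuclear receptors Rara, Rarb, Rxra, Rxrb and Rxrg. The genes were taken by name and found by Ensembl identifier among the 55487 gene rows measured. RNA sequencing of total RNA from C57BL/6 mice gave 3 libraries each of wild-type cerebral cortex, knockout cortex, wild-type hippocampus and knockout hippocampus. Wild type is the genotype labelled mTert WT. Knockout is the genotype labelled mTert KO, G1 and Homo (read as homozygous). It lacks Tert, the catalytic subunit of telomerase, and carries no other allele or agent that the labels name. Age, sex, the design of the Tert allele and any pooling of tissue are not given in the sources used. No label ties a library to an animal, so p-values measure only how far these samples spread, and that spread may be technical.

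Retinol travels in blood bound to Rbp4 and is oxidised inside cells to retinal and then, by the Aldh1a enzymes, to retinoic acid. Retinoic acid binds RAR receptors, which sit on DNA repeats as pairs with RXR receptors and switch genes on when the ligand arrives. In the adult brain the meninges are a known source of Aldh1a2, and Rarb and Rxrg are known for high expression in the striatum.

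The libraries held between 68424934 and 77972013 reads in cortex and between 72401909 and 86639113 in hippocampus. Tert, the targeted gene, measured 206, 105 and 241 normalized counts in wild-type cortex libraries 1, 2 and 3 and 0 in each of the 3 knockout cortex libraries. In hippocampus it measured 147, 184 and 128 in wild type and 0, 6.31 and 0 in knockout. All 8 cortical neuron markers and all 10 hippocampal field markers passed the filter of a mean of at least 10 normalized counts in both tissues, as did all 9 retinoid genes. Passing it therefore does not tell the tissues apart. Cortex wild-type library 2 stood apart from libraries 1 and 3, and 4693 genes were called in cortex without it, against 426 with it. Hippocampus wild-type libraries 1 and 3 held summed choroid plexus markers of 509667 and 269852 normalized counts, against 28846 in library 2 and 25664 to 40852 in knockout. In bulk tissue, fewer cells of a type and less RNA per cell cannot be told apart.

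A promoter window each of Rarb and Rxrg is shown because these receptor genes were the pair that rose together in cortex. RefSeq windows of 300 bases, from 250 before the start to 50 after it (GRCm38.p6), were found for 8 of the 9 genes, 16 windows in all. They were searched on both strands for direct repeats of a half-site with a spacer of 1, 2 or 5 bases (DR1, DR2 and DR5), the arrangements that retinoid receptor pairs are known to bind. A half-site was AGGTCA (the consensus), GGGTCA (a variant of it), GGTTCA (which opens the known Rarb repeat) or AGTTCA (which closes it), in any combination. Since these letters include those of the known Rarb repeat, the match in Rarb was fixed by the choice of letters and is shown only to locate it. The Rarb window lies at chr14:16575427-16575726 on the minus strand. It is inside the annotated gene, whose span on that strand begins at 16819156. The printed Rxrg window lies at chr1:167598112-167598411 on the plus strand and holds the annotated start of the gene. The other Rxrg window, at chr1:167618015-167618314, is not printed. The printed windows read 5′ to 3′ on the strand of the gene, and the capitals mark the repeat.
Rarb: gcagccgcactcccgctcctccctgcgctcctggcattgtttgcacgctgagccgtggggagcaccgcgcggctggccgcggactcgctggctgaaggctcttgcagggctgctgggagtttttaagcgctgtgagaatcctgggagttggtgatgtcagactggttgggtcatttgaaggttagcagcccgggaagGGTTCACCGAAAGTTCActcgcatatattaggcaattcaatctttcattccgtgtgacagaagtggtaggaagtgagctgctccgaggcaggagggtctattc
Rxrg: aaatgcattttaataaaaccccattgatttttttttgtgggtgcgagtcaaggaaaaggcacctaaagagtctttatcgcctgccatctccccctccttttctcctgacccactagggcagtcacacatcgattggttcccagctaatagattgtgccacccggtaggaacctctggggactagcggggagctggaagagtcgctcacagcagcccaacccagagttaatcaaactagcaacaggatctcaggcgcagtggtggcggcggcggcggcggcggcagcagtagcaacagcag
The Rarb window held the DR5 repeat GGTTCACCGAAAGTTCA, at -53 to -37 from the start. No repeat of these letters was in the other 15 windows, the printed Rxrg window included. Of all 32851 mouse windows 0.0974% held a DR5, 0.222% a DR1 and 0.268% a DR2. The DR5 windows belonged to 31 genes, of which 18 were matched by symbol to a gene row. In cortex 9 could be tested, with 1 called higher, Rarb itself, and 0 lower, where 1.94% of all tested genes were called. In hippocampus 10 could be tested, with 1 called higher and 3 lower, where 14.1% and 15.1% of all tested genes were.

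In cortex 4 of the 9 genes were called, where 1.94% of all 21945 tested genes were called. Rxrg, Rarb and Aldh1a1 rose (3 of 9, against 1.28% of all genes called higher) and Aldh1a3 fell (1 of 9, against 0.661% called lower). The 3 knockout values lay wholly above or wholly below the 3 wild-type values for 7 of the 9 genes, as they did for 28.3% of all tested genes. Calling means a limma adjusted p (Benjamini-Hochberg, over all genes of the tissue) below 0.05 on log2(normalized count + 1). Log2 fold changes set knockout against wild type and carry their SE, with n = 3 per group. The median log2 fold change was 0.03 over the 9 genes and -0.01 over all tested genes.

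In hippocampus 3 of the 9 genes were called, Rara, Aldh1a1 and Rxrb, against 29.2% of all 22337 tested genes, a share close to that background. All 3 rose, where 14.1% of all genes were called higher, and 0 of the 9 fell, where 15.1% were called lower. Groups did not overlap for 4 of the 9 genes and for 45.8% of all tested genes. The median was 0.13 over the 9 genes and 0.02 over all genes. The knockout effect differed between the tissues for 3 of the 9 genes, Rara, Rarb and Rxrg, where 3.02% of 21282 genes passed that test.

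**Figure D1:**
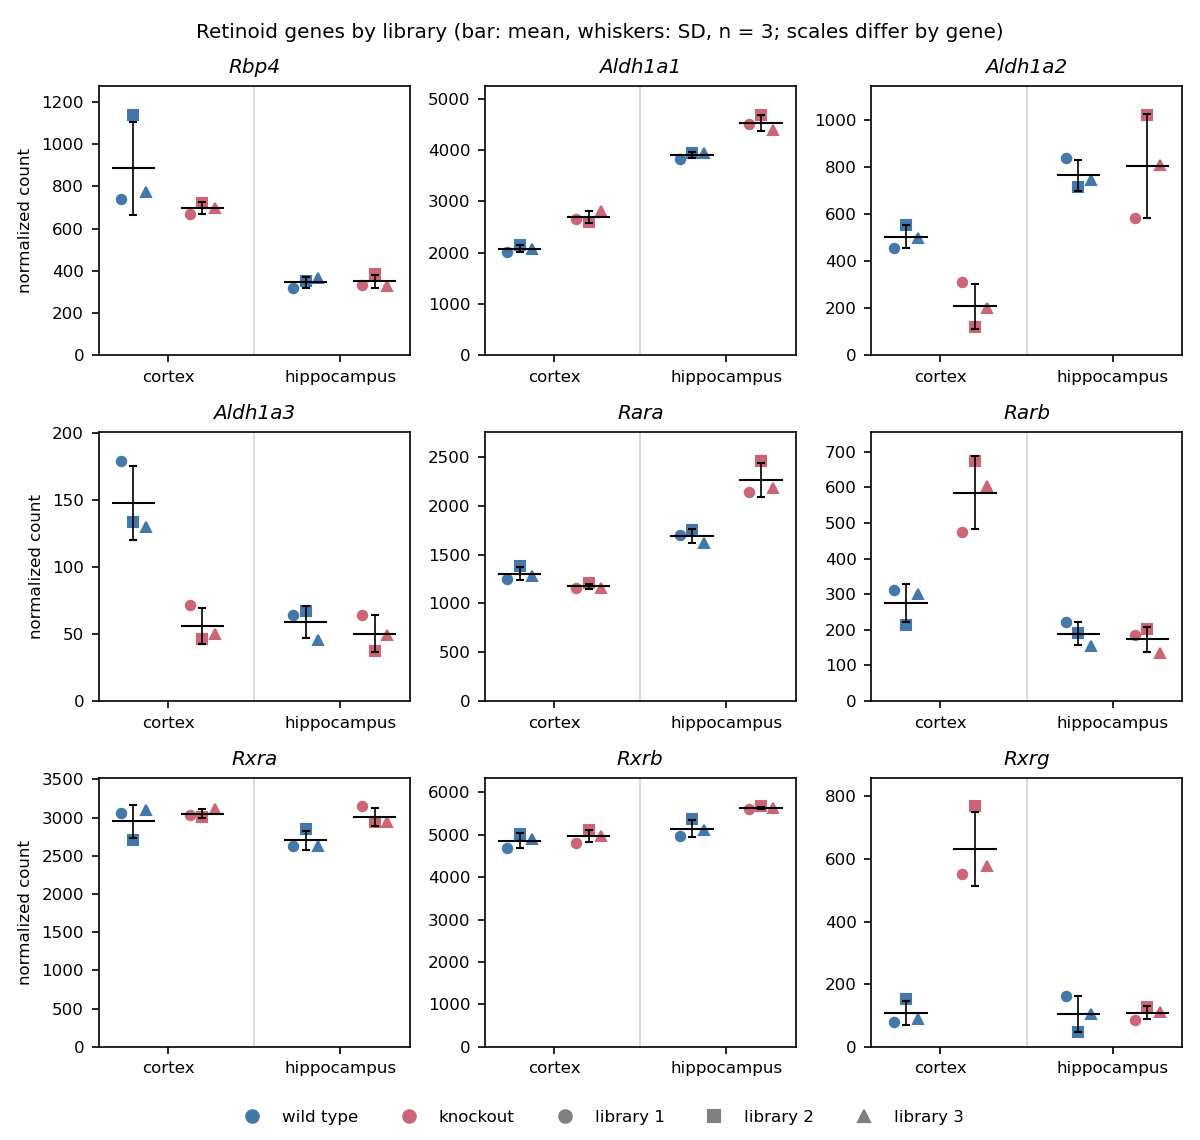
Normalized counts of the 9 retinoid genes by library, with wild type in blue, knockout in red, a bar at the mean and whiskers for the SD (n = 3), each gene on its own scale from 0. In cortex the knockout Rxrg values of 553, 768 and 577 sit above wild-type values of at most 151, and in hippocampus the Rara values of 2146 to 2464 sit above 1616 to 1755.

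Rbp4 encodes the carrier that brings retinol to tissues (ENSMUSG00000024990, chromosome 19, 38116629 to 38125281, minus strand, GRCm38). In cortex it measured 742, 1139 and 775 normalized counts in wild type and 668, 723 and 698 in knockout. All 3 knockout libraries were below all wild-type libraries, and wild-type library 2 was the highest by far. The log2 fold change of -0.32 ± 0.16 was not called (adjusted p = 0.349). In hippocampus Rbp4 measured 316, 352 and 367 in wild type and 333, 387 and 329 in knockout, and the groups overlapped (0.02, adjusted p = 0.923). Ttr, the choroid plexus transcript whose protein carries Rbp4 in plasma, measured 322269, 7986 and 165256 in the wild-type hippocampus libraries. The part of choroid plexus material in the Rbp4 values was not tested.

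Aldh1a1 encodes a cytosolic retinal dehydrogenase (ENSMUSG00000053279, chromosome 19, 20492715 to 20643465, plus strand). It measured 2004, 2142 and 2070 normalized counts in wild-type cortex and 2658, 2597 and 2817 in knockout cortex. In hippocampus it measured 3833, 3939 and 3940 in wild type and 4502, 4685 and 4385 in knockout. In both tissues every knockout library was above every wild-type library, with little spread within the groups. Aldh1a1 rose by 0.38 ± 0.06 in cortex (adjusted p = 0.0424) and by 0.21 ± 0.04 in hippocampus (adjusted p = 0.00773), and the difference between the tissues was not called (-0.16 ± 0.07, adjusted p = 0.204). The hippocampus call held in all 13 alternatives run, with values of 0.18 to 0.23. The cortex call held in 4 of 13, with values of 0.33 to 0.40, and among the libraries left out in turn it held only without wild-type library 2; leaving out any other library gave adjusted p-values of 0.129 to 0.218. Midbrain dopamine neurons are known to express Aldh1a1. Of their 7 markers 3 were tested in cortex, with 0 called, a median of 0.36 and a sum of 671 to 713 normalized counts in wild type and 667 to 780 in knockout, while Slc6a3, Pitx3, Foxa2 and En1 were below the filter. In hippocampus 4 were tested, with 0 called, a median of 0.14 and a sum of 716 to 907 in wild type and 893 to 1063 in knockout, and Pitx3, Foxa2 and En1 were below the filter. Their part in the Aldh1a1 values was not tested.

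Aldh1a2 encodes the retinal dehydrogenase of embryonic tissue and meninges (ENSMUSG00000013584, chromosome 9, 71215789 to 71296243, plus strand). It measured 458, 554 and 500 normalized counts in wild-type cortex and 309, 119 and 199 in knockout cortex. The knockout libraries were all lower, library 2 the lowest, and their spread was wide. The log2 fold change was -1.37 ± 0.31 and was not called (adjusted p = 0.0839), though it was called without wild-type library 2 (-1.30, adjusted p = 0.0248) and with the trend along exonic length removed (-1.32, adjusted p = 0.048). In hippocampus the values were 837, 714 and 744 in wild type and 582, 1023 and 811 in knockout, with knockout libraries on both sides of the wild type (0.04, adjusted p = 0.896). The difference between the tissues was 1.41 ± 0.40 and was not called (adjusted p = 0.0799), though it was called without cortex knockout library 1 (1.74, adjusted p = 0.0337).

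Meningeal and fibroblast markers moved beside Aldh1a2. In cortex the sum of the 15 markers was 12424, 11343 and 11934 normalized counts in wild-type libraries 1, 2 and 3. It was 10976, 6272 and 8524 in knockout libraries 1, 2 and 3, the same order as Aldh1a2 among the knockout libraries. Among the wild-type libraries the order was reversed, with Aldh1a2 at 458, 554 and 500. Of the 15 markers, 1 was called lower, Slc6a13, 0 were called higher, 14 had a log2 fold change below 0, and 0 were at 0 in all libraries. Among all tested genes in cortex 0.661% were called lower. In hippocampus the sum was 27488, 13189 and 20063 in wild type and 14813, 21942 and 18204 in knockout. There library 2 had both the highest sum and the highest Aldh1a2 among the knockout libraries, and library 1 the lowest of both. The wild-type libraries of hippocampus also had the order of Aldh1a2. The part of meningeal tissue in the Aldh1a2 values was not tested.

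Aldh1a3 encodes a further retinal dehydrogenase (ENSMUSG00000015134, chromosome 7, 66390890 to 66427517, minus strand), and it was the lowest of the 9 genes per kb of exon in each of the 4 groups. It measured 179, 133 and 130 normalized counts in wild-type cortex and 71.5, 46.6 and 50.3 in knockout cortex. The groups did not overlap, and Aldh1a3 fell by 1.39 ± 0.23 on the log2 scale (adjusted p = 0.0396). The call held in 5 of 13 alternatives, with values of -1.57 to -1.24; leaving out wild-type library 2 gave an adjusted p of 0.00436, and without any 1 of the other 5 libraries it was 0.068 to 0.19. In hippocampus Aldh1a3 measured 64.1, 67.4 and 45.5 in wild type and 64.4, 37.0 and 49.3 in knockout, overlapping groups (-0.24, adjusted p = 0.540). The difference between the tissues, 1.15 ± 0.36, was not called (adjusted p = 0.102).

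Per kb of exon, which allows levels of different genes to be compared, the make-up of the synthesis enzymes differed between the genotypes in cortex. Aldh1a1 made up 62.3 ± 0.81% (SD, n = 3) of the summed level of the 3 enzymes in wild-type cortex and 84.2 ± 5.77% in knockout cortex. Aldh1a2 made up 33.0 ± 1.67% and 14.0 ± 5.48%, and Aldh1a3 4.77 ± 1.07% and 1.86 ± 0.33%. The sum itself was 674 ± 30.7 and 650 ± 53.7 normalized counts per kb, with overlapping libraries. In hippocampus Aldh1a1 made up 69.3 ± 2.07% in wild type and 71.7 ± 4.95% in knockout. These shares are a description, with no test.

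**Figure D2:**
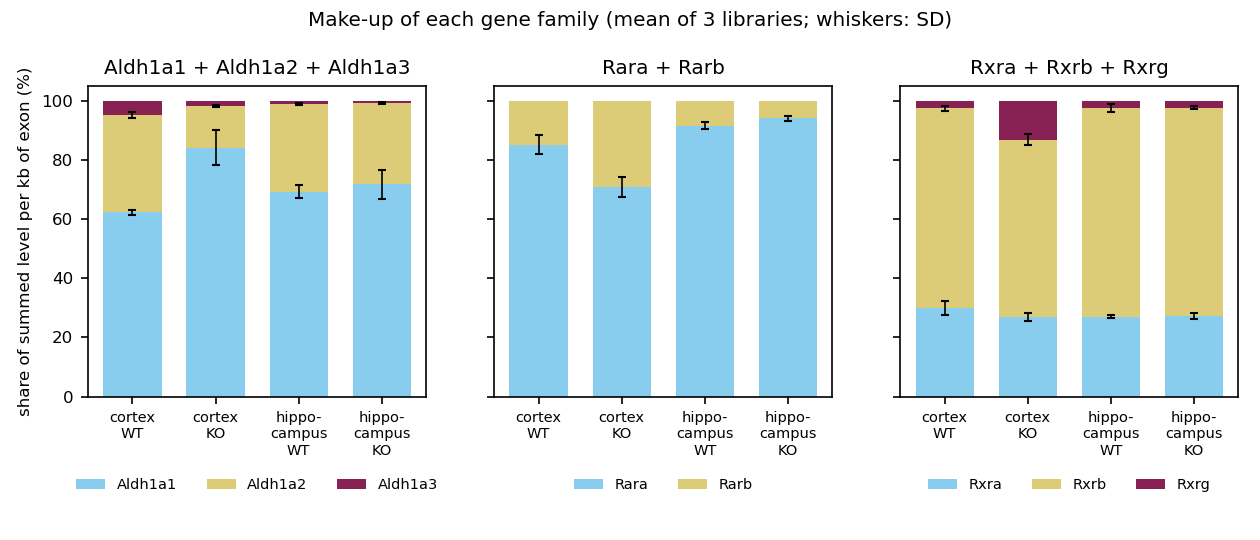
Share of each gene in the summed level per kb of exon of the genes stacked with it, in percent, for wild type (WT) and knockout (KO) of each tissue. Whiskers show the SD at each boundary (n = 3). Rarg is left out of the bars of Rara and Rarb. In knockout cortex the Aldh1a1 share is 84.2%, the Rarb share of Rara and Rarb 29.0% and the Rxrg share 13.2%, each above wild-type cortex, while the hippocampus bars differ less.

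Among the receptors that bind retinoic acid itself, Rara (ENSMUSG00000037992, chromosome 11, 98927818 to 98974942, plus strand) is the widely expressed one. In cortex it measured 1254, 1387 and 1280 normalized counts in wild type and 1163, 1208 and 1156 in knockout. Those groups did not overlap, with knockout lower, but the change of -0.15 ± 0.07 was not called (adjusted p = 0.314). In hippocampus Rara measured 1701, 1755 and 1616 in wild type and 2146, 2464 and 2183 in knockout. All knockout libraries were higher, and Rara rose by 0.42 ± 0.07 (adjusted p = 0.0032). The difference between the tissues, 0.57 ± 0.10, was called (adjusted p = 0.0135). The hippocampus call held in all 13 alternatives (0.36 to 0.46) and the difference in all 19 (0.51 to 0.61, adjusted p of 0.00318 to 0.0498).

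Rarb encodes a receptor that is itself a well-known target of retinoic acid (ENSMUSG00000017491, chromosome 14, 16430839 to 16819156, minus strand). It measured 311, 212 and 301 normalized counts in wild-type cortex and 473, 675 and 605 in knockout cortex. Every knockout library was above every wild-type library, and Rarb rose by 1.09 ± 0.19 (adjusted p = 0.0439). In hippocampus it measured 222, 191 and 156 in wild type and 185, 202 and 134 in knockout, and the groups overlapped (-0.13, adjusted p = 0.658). The effect in hippocampus was lower than in cortex by a called difference of -1.22 ± 0.29 (adjusted p = 0.048). The cortex call held in 5 of 13 alternatives, with values of 0.91 to 1.23; leaving out wild-type library 2 gave an adjusted p of 0.00269, and without any 1 of the other 5 libraries it was 0.087 to 0.211. The difference held in 6 of 19 and was lost without each cortex knockout library and each hippocampus library.

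The annotated span of Rarb overlaps that of Top2b, a topoisomerase gene on the opposite strand, by 4624 bases, and their exons overlap too. No source used here gives library strandedness, so the Rarb values are uncertain. Top2b measured 7253, 5857 and 7005 normalized counts in wild-type cortex and 7561, 7629 and 7373 in knockout cortex, and was not called (0.17, adjusted p = 0.348). The antisense gene Gm48162, which overlaps Rarb exons, was below the filter in both tissues. Rarg, the remaining receptor of retinoic acid, is not among the 9 genes and was called in neither tissue (-0.14 ± 0.07 in cortex, adjusted p = 0.298, and -0.05 in hippocampus, adjusted p = 0.709). Rarb made up 14.9 ± 3.15% of the summed Rara and Rarb level per kb in wild-type cortex and 29.0 ± 3.38% in knockout cortex. Rarg, left out of that sum, stood at 264 ± 6.08 normalized counts per kb in wild-type cortex and 238 ± 2.15 in knockout cortex.

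Rxra and Rxrb encode the widely expressed partner receptors (ENSMUSG00000015846, chromosome 2, 27676440 to 27762957, plus strand, and ENSMUSG00000039656, chromosome 17, 34031812 to 34038399, plus strand). In cortex Rxra measured 3061, 2702 and 3096 normalized counts in wild type and 3041, 3009 and 3112 in knockout. Rxrb measured 4679, 5014 and 4894 there in wild type and 4812, 5101 and 4977 in knockout. Both overlapped between the genotypes and neither was called (0.05, adjusted p = 0.742, and 0.03, adjusted p = 0.817).

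In hippocampus both partner receptors had all knockout libraries above all wild-type libraries. Rxra measured 2626, 2849 and 2634 in wild type and 3147, 2945 and 2938 in knockout, a difference of 0.16 ± 0.05 that was not called (adjusted p = 0.0573). It was called after quantile normalization (adjusted p = 0.0333) and without wild-type library 2 (adjusted p = 0.0197). Rxrb measured 4979, 5358 and 5099 in wild type and 5616, 5665 and 5619 in knockout and rose by 0.13 ± 0.04 (adjusted p = 0.0448). This small rise held in 4 of 13 alternatives: it was 0.08 with the trend along exonic length removed (adjusted p = 0.18), and the call was lost without each library other than wild-type library 2 (adjusted p of 0.0954 to 0.15).

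Rxrg encodes the partner receptor with restricted expression (ENSMUSG00000015843, chromosome 1, 167598384 to 167639623, plus strand) and showed the widest change of the 9 genes. It measured 80.2, 151 and 89.0 normalized counts in wild-type cortex and 553, 768 and 577 in knockout cortex. The lowest knockout library was well above the highest wild-type library, and the knockout mean was 5.92-fold the wild-type mean. Rxrg rose by 2.60 ± 0.25 on the log2 scale (adjusted p = 0.00723). In hippocampus it measured 162, 46.0 and 104 in wild type and 85.9, 127 and 111 in knockout, with overlapping groups (0.21, adjusted p = 0.742). The difference between the tissues was -2.38 ± 0.54 and was called (adjusted p = 0.0423).

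The cortex call of Rxrg held in 11 of 13 alternatives, with values of 2.42 to 2.87. It was lost without knockout library 2 (2.45, adjusted p = 0.0554) and without knockout library 3 (2.65, adjusted p = 0.0639). The difference between tissues held in 7 of 19 alternatives, with values of -2.87 to -1.98, and was lost without cortex wild-type library 3, any 1 cortex knockout library, or any 1 hippocampus library other than wild-type library 2. Rxrg made up 2.56 ± 0.91% of the summed Rxr level per kb in wild-type cortex and 13.2 ± 1.94% in knockout cortex, and 2.49 ± 1.42% and 2.34 ± 0.45% in hippocampus.

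**Figure D3:**
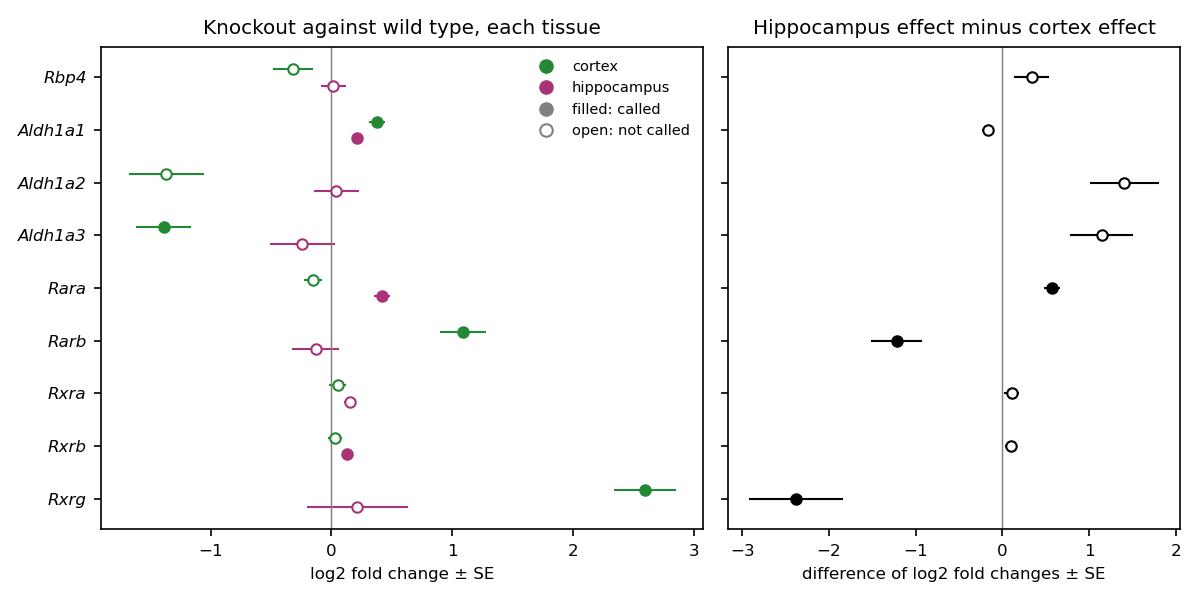
Left, log2 fold changes of knockout over wild type ± SE for the 9 genes in cortex and hippocampus; right, the hippocampus effect minus the cortex effect ± SE, with filled points for called values. Rxrg reaches 2.60 in cortex and 0.21 in hippocampus, and Rara, Rarb and Rxrg carry the 3 filled points on the right.

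Striatal neuron markers moved beside Rxrg and Rarb in cortex. Of the 16 markers, 13 were called higher and 0 lower, where 1.28% of all tested genes were called higher. Of these markers 0 were at 0 in all libraries, and their median log2 fold change was 1.52. Their sum was 50182 to 54891 normalized counts in wild type and 91009, 129262 and 109884 in knockout libraries 1, 2 and 3. Rxrg (553, 768 and 577) and Rarb (473, 675 and 605) had the same order among the knockout libraries. The wild-type sums were 54380, 50182 and 54891 in libraries 1, 2 and 3. There library 2, with the lowest sum, had the highest Rxrg (151) and the lowest Rarb (212). In hippocampus, where neither receptor gene was called, the striatal sum was 65417 to 68432 in wild type and 62864 to 64085 in knockout. There 3 of the 16 markers were called higher and 3 lower, where 14.1% and 15.1% of all tested genes were. Choroid plexus markers in cortex had the same order as the striatal sum among the knockout libraries. Their sums were 16058 to 16205 in wild type and 21384, 33805 and 27305 in knockout libraries 1, 2 and 3. Of those 14 markers 2 were called higher and 0 lower, and all 14 had a log2 fold change above 0 (median 0.76). Oligodendrocyte markers, with 0 of 6 called and a median of 0.24, summed to 308867 to 317601 in wild type and 356506, 385836 and 365511 in knockout. The part of striatal, choroid plexus or oligodendrocyte material in the Rxrg and Rarb values was not tested.

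**Figure D4:**
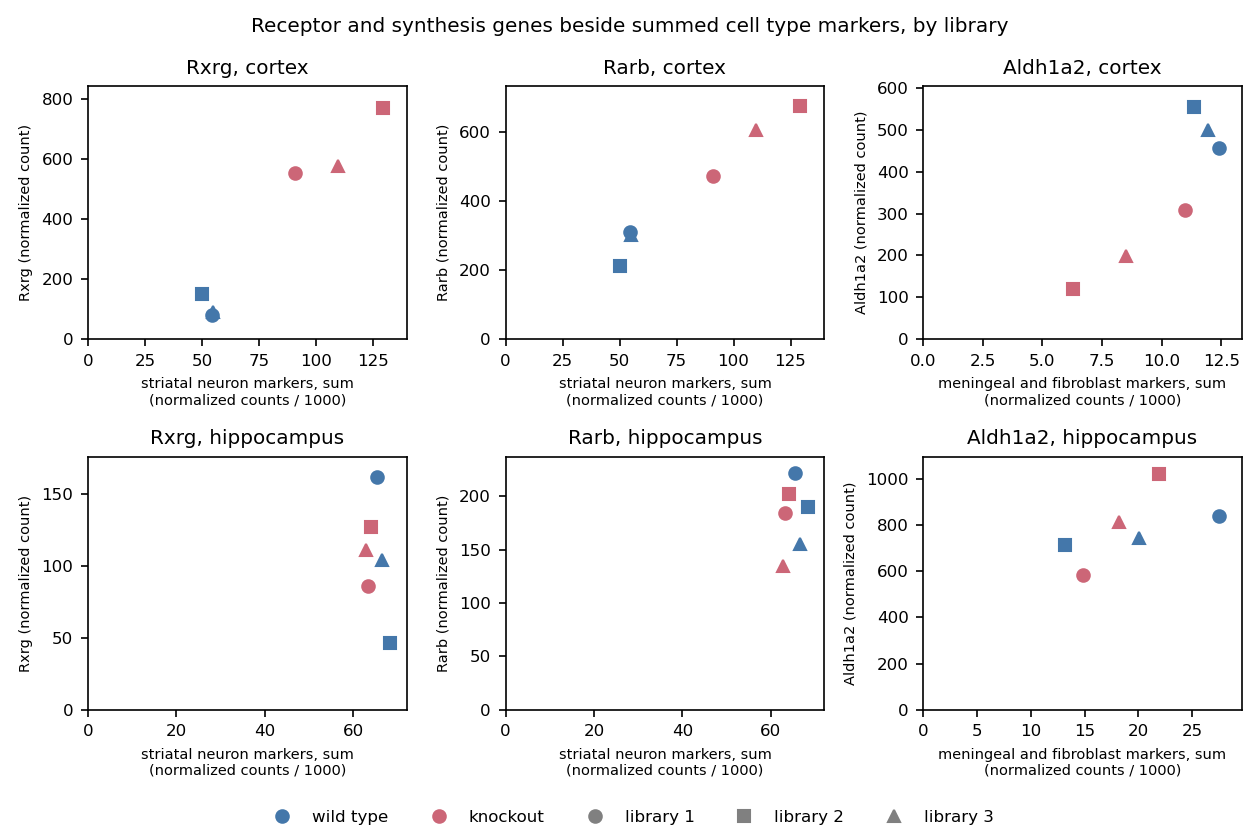
Rxrg and Rarb by library against the summed striatal neuron markers, and Aldh1a2 against the summed meningeal and fibroblast markers, all in normalized counts (marker sums divided by 1000), cortex above and hippocampus below, wild type in blue and knockout in red. In cortex the knockout libraries with more striatal marker counts, up to 129262, hold more Rxrg and Rarb. The cortex library with the lowest meningeal sum, 6272, holds the least Aldh1a2, 119. Among wild-type cortex libraries, library 2 has the lowest striatal and meningeal sums but the most Rxrg, 151, and the most Aldh1a2, 554.

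Ordered by level per kb of exon within wild-type cortex, Rxrb was highest (1224 ± 42.8 normalized counts per kb), then Rbp4 (659 ± 164), Rxra (541 ± 39.9), Aldh1a1 (420 ± 14.0), Rara (299 ± 16.1), Aldh1a2 (223 ± 21.3), Rarb (52.2 ± 10.3), Rxrg (46.5 ± 16.9) and Aldh1a3 (32.0 ± 5.97). The libraries of Rbp4 and Rxra, of Rarb and Rxrg, and of Rxrg and Aldh1a3 overlapped, so those neighbours did not differ beyond their spread. In knockout cortex Rxrg stood at 275 ± 51.3 per kb, overlapping Rara (269 ± 6.48), and Aldh1a2 at 92.4 ± 42.2, overlapping Rarb (111 ± 19.4). In wild-type hippocampus Rxrb again led (1295 ± 48.7), followed by Aldh1a1 (791 ± 12.5), Rxra (495 ± 23.2), Rara (387 ± 16.1), Aldh1a2 (338 ± 28.4), Rbp4 (257 ± 19.4), Rxrg (45.2 ± 25.2), Rarb (36.0 ± 6.30) and Aldh1a3 (12.8 ± 2.56). There the 1 overlap between neighbours was that of Rxrg and Rarb. The order was the same in knockout hippocampus, where Rara reached 519 ± 39.8 per kb and overlapped Rxra (551 ± 21.7).

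For the 4 genes with the smallest adjusted p, the genes with the most similar profile were sought among 15553 protein-coding genes, by the root mean square difference of log2(normalized count + 1) over the 12 libraries after centring each gene within each tissue. For Rara the nearest was Igfbp4 (0.0396), then Camk1g (0.0448) and Vgf (0.0470). Igfbp4, an insulin-like growth factor binding protein gene, lies 66.3 kb from Rara on chromosome 11. It measured 5734, 5924 and 5840 normalized counts in wild-type hippocampus and 7430, 8113 and 7263 in knockout hippocampus, a rise of 0.38 ± 0.05 (adjusted p = 0.00136), and -0.14 ± 0.08 in cortex (adjusted p = 0.371).

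For Rxrg the nearest were Cd59a (0.435), Syndig1l (0.435) and Oprk1 (0.476), of which Syndig1l is among the striatal markers. All 3 rose in cortex, by 1.54, 2.79 and 1.78. For Aldh1a1 they were Vamp1 (0.0469), Ngef (0.0471) and Rbfox3 (0.0499), and for Aldh1a3 they were Grp (0.199), Tshz2 (0.204) and Itprid1 (0.282). Grp and Tshz2 fell in cortex by 1.14 and 1.30 on the log2 scale. These distances are descriptions, and genes that vary more lie farther from every other gene.

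Other genes of the pathway were read from 6 lists. In cortex 0 of 10 tested genes of retinol transport and storage were called, 0 of 15 retinol and retinal oxidoreductases, and 0 of 13 receptor corepressors and coactivators. These counts depended on wild-type library 2. Without it 2 of 10 transport genes and 2 of 14 tested oxidoreductases were called higher. In that setting 2420 of all 21927 tested genes were called higher and 2273 lower, with a median of -0.002. Of the 13 corepressors and coactivators 6 were called lower there, with a median of -0.11 in place of 0.05. Among 15 tested RXR partner and related nuclear receptors 1 rose, Nr4a2, known from midbrain dopamine neurons and able to pair with RXR. It measured 1013, 1531 and 1429 normalized counts in wild type and 2923, 2881 and 3049 in knockout, a rise of 1.18 ± 0.15 (adjusted p = 0.0176). Its knockout libraries were close together and all above wild type. The call was lost without wild-type library 3 or any 1 knockout library. Among 13 tested genes known to respond to retinoic acid, 1 rose in cortex, Rarb, and 0 fell, with a median of 0.06. Without wild-type library 2 the 15 partner receptors had 2 calls higher and 2 lower, and the 13 responsive genes 4 higher and 1 lower. Of all 21927 tested genes that setting called 2420 higher and 2273 lower.

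Cyp26b1, which encodes an enzyme that degrades retinoic acid, was the 1 of 3 such genes above the filter. In hippocampus it measured 1319, 1406 and 1313 normalized counts in wild type and 1646, 2485 and 2049 in knockout, and it rose by 0.59 ± 0.13 (adjusted p = 0.0139), a call lost without wild-type library 3 or knockout library 3. In cortex it measured 124, 94.2 and 125 in wild type and 350, 166 and 240 in knockout, 1.08 ± 0.27, not called (adjusted p = 0.107), though it was called without wild-type library 2 (0.94). In both tissues every knockout library was above every wild-type library, and the difference between tissues was not called (-0.48, adjusted p = 0.390).

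In hippocampus Stra6, the cell-surface receptor for Rbp4-bound retinol, fell. It measured 1761, 1457 and 1764 normalized counts in wild type and 1148, 1144 and 1020 in knockout. The change of -0.58 ± 0.09 (adjusted p = 0.00291) was called in all 8 alternatives run for these lists. Wild-type library 2 was lowest for Stra6 and for the summed choroid plexus markers (509667, 28846 and 269852). Among knockout libraries, library 3 was lowest for Stra6 and library 2 for those markers (40852, 25664 and 32156). The part of choroid plexus material in the Stra6 values was not tested. In cortex Stra6 was not called (0.11, adjusted p = 0.621), and the difference between tissues was called (-0.70, adjusted p = 0.0269). Fabp5, which carries retinoic acid to the nucleus, and Lpl, a lipase that can also cleave retinyl esters, rose in hippocampus by 0.20 ± 0.04 and 0.28 ± 0.05, and Lpl by 0.52 once the length trend was removed. With Stra6 they were the 3 called genes of the 10 tested for transport and storage, 2 higher and 1 lower, with a median of -0.06, a share close to the 29.2% of all genes called in that tissue.

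Of 12 tested oxidoreductases in hippocampus 3 rose and 1 fell, again close to the 29.2% of all genes, with a median of -0.03. Rdh13, Rdh11 and Rdh14, enzymes of the retinol dehydrogenase family, rose by 0.23, 0.20 and 0.18, and the calls of Rdh11 and Rdh14 were lost with the trend along exonic length removed (adjusted p = 0.0731 and 0.0757). That of Rdh13 was lost without wild-type library 3 or knockout library 2. Rdh5, a retinol dehydrogenase gene chosen after its values were seen, had 1734, 342 and 1006 normalized counts in wild type and 302, 237 and 278 in knockout, a fall of 1.63 ± 0.51 on the log2 scale (adjusted p = 0.0465). Its wild-type libraries had the order of the summed choroid plexus markers (509667, 28846 and 269852), whose part was not tested. The call of Rdh5 was lost without wild-type library 1 or 3 and without any 1 knockout library.

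Receptor corepressors and coactivators in hippocampus had 9 falls and 1 rise among 13 tested genes and a median of -0.54. Among all tested genes 15.1% were called lower and 14.1% higher, with a median of 0.02. The smallest p-values were those of Lcor, Ncoa2 and Med1. Lcor, a ligand-dependent corepressor, measured 1258, 1433 and 1414 normalized counts in wild type and 103, 70.4 and 81.2 in knockout (-4.01 ± 0.14, adjusted p = 1.6e-05). Ncoa2, a coactivator of nuclear receptors, fell by 0.81 ± 0.06 and Med1, a mediator subunit, by 0.59 ± 0.05 on the log2 scale. After removal of the trend along exonic length there were 8 falls, 1 rise and a median of -0.25, and Ncoa2 stood at -0.37 and Med1 at -0.43. In cortex Lcor measured 1121, 276 and 976 in wild type and 109, 136 and 139 in knockout and was not called (-2.39 ± 0.49, adjusted p = 0.0633). Cortex Lcor was called in 3 of 8 alternatives, those without wild-type library 2, with edgeR and with the length trend removed (-2.45, adjusted p = 0.0211). Over the 8 its values ran from -3.03 to -2.02 and its adjusted p from 6.52e-06 to 0.241.

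Of 15 tested partner and related receptors in hippocampus 1 rose and 1 fell, where 14.1% of all genes were called higher and 15.1% lower. Thra, a thyroid hormone receptor, rose by 0.23 ± 0.06 (adjusted p = 0.0199) and Ppara, a fatty acid receptor, fell by 1.13 ± 0.21 on the log2 scale (adjusted p = 0.00681). Ppara measured 176, 219 and 133 normalized counts in wild type and 72.2, 73.1 and 91.9 in knockout, with every knockout library lower. The call of Thra was lost without wild-type library 3 or any 1 knockout library. Of 14 tested genes known to respond to retinoic acid, Meis2 and Cyp26b1 rose and Nrip1 and Stra6 fell (4 of 14, close to the 29.2% of all genes), with a median of -0.10. Meis2, a homeobox gene, rose by 0.27 ± 0.04 (0.58 with the trend along exonic length removed), and Nrip1, a corepressor, fell by 0.65 ± 0.09 on the log2 scale (-0.36 with that trend removed). Microglia markers also moved in hippocampus, where 14.1% of all genes were called higher (6 of 7 markers called higher, summed 18855 to 22460 in wild type and 27524 to 28744 in knockout). So did astrocyte markers (4 of 8 called higher, 133371 to 151657 and 163839 to 169739) and oligodendrocyte markers (3 of 6 called higher, 377101 to 382127 and 409866 to 476058). The part of these cell types in the hippocampus results was not tested.

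**Figure D5:**
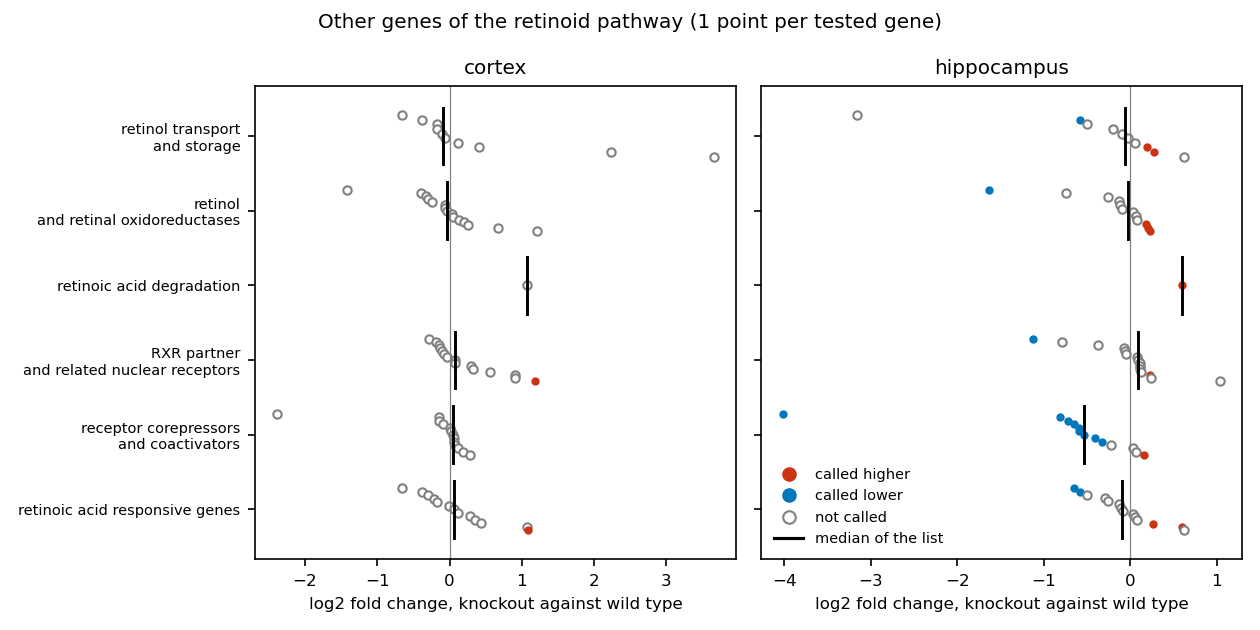
Log2 fold changes of knockout over wild type for each tested gene of 6 retinoid pathway lists in cortex and hippocampus, with called rises in red, called falls in blue, other genes open and a black line at the median of each list. In hippocampus the corepressor and coactivator list has 9 blue points and a median of -0.54, where 15.1% of all tested genes were called lower. In cortex it has none and a median of 0.05. Without cortex wild-type library 2 the cortex list has 6 falls and a median of -0.11, where 2273 of all 21927 tested genes were called lower. The difference between the tissues was not tested for the list.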

How the data were processed

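The authors deposited 1 table per tissue, 12 libraries in all, whose values are a signal named normalized counts. The submitters' processing notes name STAR, HTSeq, DESeq2 and GRCm38, without settings. Within each library the deposited values were whole multiples of 1 step (0.902 to 1.07; 100% within 0.001 of a whole number), read as 1 read per step, which could not be checked for cortex wild-type libraries 1 and 2. Each of the 9 genes had at least 41 reads in every library; for the lowest, Aldh1a3 and Rxrg, counting error is part of the spread between libraries. Because each table has its own scaling, levels were compared only inside a tissue.

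Identifiers were matched to GENCODE (GRCm38), 55227 of 55487 rows. Genotypes were compared with limma 3.58.1 (R 4.3.3, prior variance following expression) on log2(normalized count + 1), a scale that understates the change of low genes. Genes averaging at least 10 normalized counts entered. The tissues were compared by the interaction over 12 libraries. edgeR 4.0.16 on recovered reads, a pseudocount of 5, no filter, no trend, quantile normalization, removal of the trend along exonic length, a replicate block and leaving out each library were the alternatives. The fits were tested on simulated data. Of simulated log2 changes of 1, 96% were called in cortex, 93% in hippocampus and 54% for the difference between tissues. For changes of 0.5 these shares were 19%, 28% and 6%, so most small changes went uncalled there. Of the genes called, 5.74%, 2.42% and 6.25% were false.

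The genes and lists were chosen with earlier results of these data known. Named genes are the 9, Tert, up to 3 called genes of each list by smallest p, and the 3 nearest profiles of 4 genes. Neighbouring or related genes of Rara and Rarb are named beside them. The pathway lists are described by counts, with no test of a list. Alternatives for the pathway lists were chosen after seeing the data. How reads of overlapping genes were assigned is not given in the sources used.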

Additional observations from a re-analysis of the deposited data

Results flagged for a closer look

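The knockout effect differed between the tissues for 3 of the 9 genes by the interaction term of limma. For Rara the hippocampus effect minus the cortex effect was 0.57 ± 0.10 (adjusted p = 0.0135): every knockout library lay above wild type in hippocampus and below it in cortex. For Rxrg it was -2.38 ± 0.54 (adjusted p = 0.0423) and for Rarb -1.22 ± 0.29 (adjusted p = 0.048), both with non-overlapping groups in cortex and overlapping groups in hippocampus. That of Rara was called in all 19 alternatives, that of Rxrg in 7 and that of Rarb in 6.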

How the results depend on the processing

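Of 405 values of single genes under alternatives, 339 kept their side of the threshold, 61 lost a call, 5 gained one and 0 called values changed sign. In cortex the 4 called of the 9 genes became 1 without the filter on low values, 1 without a trend of the prior variance and 1 with the replicate block, and 0 to 5 with 1 library left out. Among all genes the 426 calls in cortex became 233 without the filter, 86 without the trend, 1285 with the length trend removed and 45 with the replicate block, and 15 to 4693 with 1 library left out, the highest without wild-type library 2. In hippocampus 2 to 4 of the 9 genes were called under every alternative, and 3656 (without wild-type library 3) to 7833 (without wild-type library 2) of all genes with 1 library left out; quantile normalization gave 4557 higher and 2949 lower, against 3141 and 3372, and a median over all genes of 0.09 in place of 0.02.

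For the difference between tissues the 3 genes became 1 without the filter, 1 without the trend and 1 with the replicate block, and 1 to 3 with 1 library left out. The 642 calls among all genes became 370 without the filter, 253 without the trend, 1013 after quantile normalization, 1023 with the length trend removed, 1046 with edgeR and 110 with the replicate block, and 171 to 1965 with 1 library left out. The cause of these moves was not tested. Wild-type and knockout libraries of the same number did not deviate together within a tissue (correlations of -0.06 to 0.005 in cortex and -0.03 to 0.09 in hippocampus). With 3 libraries per group, these values cannot settle whether the numbers pair the samples. Whether cortex and hippocampus libraries of the same number share an animal was not tested, and the interaction treats them as independent.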
